A study of Mus musculus with 8 samples.

Results

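The MCM genes Mcm2 to Mcm7 encode the 6 subunits of the replicative DNA helicase, and their messenger RNAs were followed in cultured mouse bone marrow cells with and without the microRNA miR-223. They were taken as the 10 probe sets assigned to these genes by their Affymetrix identifiers on a mouse whole-genome array, of 45101 in the deposited table. Among these 10, Mcm2, Mcm3, Mcm4 and Mcm7 had 2 probe sets each, and Mcm5 and Mcm6 had 1 each. Whether the array holds further probe sets of these genes was not checked. The 4 groups, each with 2 arrays, were miR-223 null mature neutrophils at day 8, wild-type mature neutrophils at day 8, miR-223 null progenitors at day 4 and wild-type progenitors at day 4. Day 8 cells had grown in G-CSF, the granulocyte growth factor, and SCF, which binds c-Kit, over 6 days, then for 42 hours after SCF was withdrawn. They were taken from the Gr-1 positive gate that lacked c-Kit. Day 4 cells had grown over 4 days in both factors and came from the c-Kit positive gate that lacked Gr-1, and all cultures were in SILAC-IMDM medium. The labels give neither the targeting construct of the null allele nor the number of animals behind a culture, and do not say whether replicates were separate cultures, so p-values measure the spread between arrays, which may be technical.

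Before DNA replication starts, the MCM proteins are loaded as a ring around DNA at replication origins, and during S phase the ring is activated and unwinds the helix ahead of the fork. Their genes are transcribed from late G1 under E2F factors, and MCM levels are high in cycling progenitors and low in cells that have left the cell cycle, as mature neutrophils have. The microRNA absent from the null cells, miR-223, is abundant in the myeloid lineage and restrains granulocyte output. Its RefSeq mature sequence is shown because the genotypes differ in it, with the seed, bases 2 to 8, in capitals.
mmu-miR-223-3p: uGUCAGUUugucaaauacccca

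Promoters of the MCM genes are shown because the probe sets of these genes moved together over maturation, in RefSeq windows (build GRCm38.p6) from 250 bases before to 50 bases after an annotated start, read 5′ to 3′ on the gene's strand. Windows were held for 5 of the 6 genes. Capitals mark matches, on either strand, to the E2F words TTTCCCGC, TTTCGCGC, TTTGCCGC and TTTGGCGC.
Mcm2, chr6:88898731-88899030, minus strand: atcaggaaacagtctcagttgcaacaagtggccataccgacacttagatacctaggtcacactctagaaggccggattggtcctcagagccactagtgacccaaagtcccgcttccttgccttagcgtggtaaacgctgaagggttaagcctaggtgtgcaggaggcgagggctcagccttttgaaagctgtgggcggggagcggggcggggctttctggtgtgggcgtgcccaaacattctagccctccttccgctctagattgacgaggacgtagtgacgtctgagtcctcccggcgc
Mcm3, chr1:20820263-20820562, minus strand: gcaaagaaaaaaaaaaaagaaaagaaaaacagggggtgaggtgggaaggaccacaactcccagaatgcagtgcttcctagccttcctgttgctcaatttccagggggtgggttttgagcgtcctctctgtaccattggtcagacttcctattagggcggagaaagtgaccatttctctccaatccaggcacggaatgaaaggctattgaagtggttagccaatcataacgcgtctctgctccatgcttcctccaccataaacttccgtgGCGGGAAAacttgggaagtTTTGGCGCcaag
Mcm5, chr8:75109259-75109558, plus strand: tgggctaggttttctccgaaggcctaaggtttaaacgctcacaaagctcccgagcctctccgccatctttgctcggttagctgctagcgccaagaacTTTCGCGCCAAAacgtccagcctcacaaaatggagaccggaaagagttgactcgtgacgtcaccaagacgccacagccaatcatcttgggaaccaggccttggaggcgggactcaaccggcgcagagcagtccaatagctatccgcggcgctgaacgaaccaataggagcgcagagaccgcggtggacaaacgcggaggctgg
Mcm6, chr1:128359656-128359955, minus strand: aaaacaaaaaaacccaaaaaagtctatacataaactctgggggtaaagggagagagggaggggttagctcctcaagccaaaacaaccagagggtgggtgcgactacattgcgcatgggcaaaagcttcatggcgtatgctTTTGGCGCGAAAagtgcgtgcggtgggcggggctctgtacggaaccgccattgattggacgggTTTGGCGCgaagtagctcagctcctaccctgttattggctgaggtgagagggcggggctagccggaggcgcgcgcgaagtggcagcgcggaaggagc
Mcm7, chr5:138171834-138172133, minus strand: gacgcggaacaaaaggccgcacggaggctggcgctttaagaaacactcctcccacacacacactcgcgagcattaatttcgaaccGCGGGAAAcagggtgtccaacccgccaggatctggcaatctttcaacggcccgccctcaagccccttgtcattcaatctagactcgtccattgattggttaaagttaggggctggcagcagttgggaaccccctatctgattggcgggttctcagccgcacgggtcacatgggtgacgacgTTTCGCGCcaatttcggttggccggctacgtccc

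At least 1 of the 4 words was found in a window of 4 of these 5 genes, Mcm3, Mcm5, Mcm6 and Mcm7. Over the whole table, such a window was found for 2.6% of 27025 genes, and 2.26% of the 32851 windows held a word. Mcm3 held 2 matches, Mcm5 held 2 that overlap each other, Mcm6 held 3 of which 2 overlap, and Mcm7 held 2. In the Mcm2 window, and in a second Mcm7 window that is not shown, these letters did not occur. The CCAAT word, bound by the factor NF-Y and common in promoters of cell cycle genes, was present in each of the 5 windows shown, against 37.4% of all windows. In Mcm7 a CCAAT shares a base with the E2F word nearest the 3′ end. These matches describe letters in a window and were not tested as binding sites.

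The arrays were alike in some measures and split by day in others. The medians of all probe sets spanned 0.052 on the log2 scale, which an equalizing normalization made earlier could produce. Replicates of a group correlated at 0.993 to 0.997. The hybridization controls averaged 9.95 to 10.18 at day 8 against 9.75 to 9.88 at day 4, and the cause of this split was not tested. The log2 signal of beta-actin at its 3′ over its 5′ control probe set, a measure of RNA integrity and labelling, was 0.10 to 0.17 at day 8 against 0.36 to 0.44 at day 4, and its part in the changes between days was not tested. The same measure for Gapdh was -0.08 to -0.03 at day 8 and -0.02 to 0.05 at day 4. No table used here pairs the other probe sets with genes, so the sorted cell types were not checked against their markers and other replication genes and miR-223 itself were not analysed here.

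All 6 MCM genes fell from the c-Kit positive progenitor to the mature neutrophil, in null and in wild-type cells. Cell stage, days in culture, sort gate and SCF withdrawal all changed together between the days, so their effects cannot be told apart here. At 9 of the 10 probe sets, which cover every gene, the day 8 signal in null cells was 22.0% to 31.9% of the day 4 signal, and in wild-type cells 22.9% to 32.8%. The remaining probe set, 1420029_AT of Mcm3, fell 1.44-fold in null cells and was not called in wild type. A probe set was called where the adjusted p of limma, over the 22519 probe sets tested, was below 0.05. Bulk arrays cannot tell fewer MCM-expressing cells from less MCM RNA per cell. The percentages compare array signals as deposited, and the total RNA content of the cells was not measured.

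In null cells 10 of 10 MCM probe sets were called lower at day 8, where the share over every tested probe set was 39.9%, and 9 of 10 were called lower by at least 2-fold, where that share was 20.0%. In wild-type cells 9 of 10 were called lower, against 41.7%, and the same 9 by at least 2-fold, against 20.7%. The median log2 change of the 10 was -1.92 in null and -1.93 in wild type, beside medians over all tested probe sets of 0.003 in null and -0.04 in wild type. The arrays of the 2 days did not overlap for 10 of 10 probe sets in null, where 45.3% of all tested probe sets were lower without overlap, and for 9 of 10 in wild type, where 46.2% were. With the hybridization controls as the scale, the overall median moved to -0.35 in null and -0.205 in wild type, a shift common to all probe sets that leaves the MCM median at -1.93 in null and -1.90 in wild type relative to it by construction. That scaling raised the share of calls that were lower to 70.1% in null, against 52.6% as deposited, and to 63.9% in wild type, against 54.0%. The share of probe sets called lower at day 8 was 51.0% in null and 45.6% in wild type with it, and 23.5% in null and 24.6% in wild type as deposited when probe sets of low signal were kept.

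**Figure D1:**
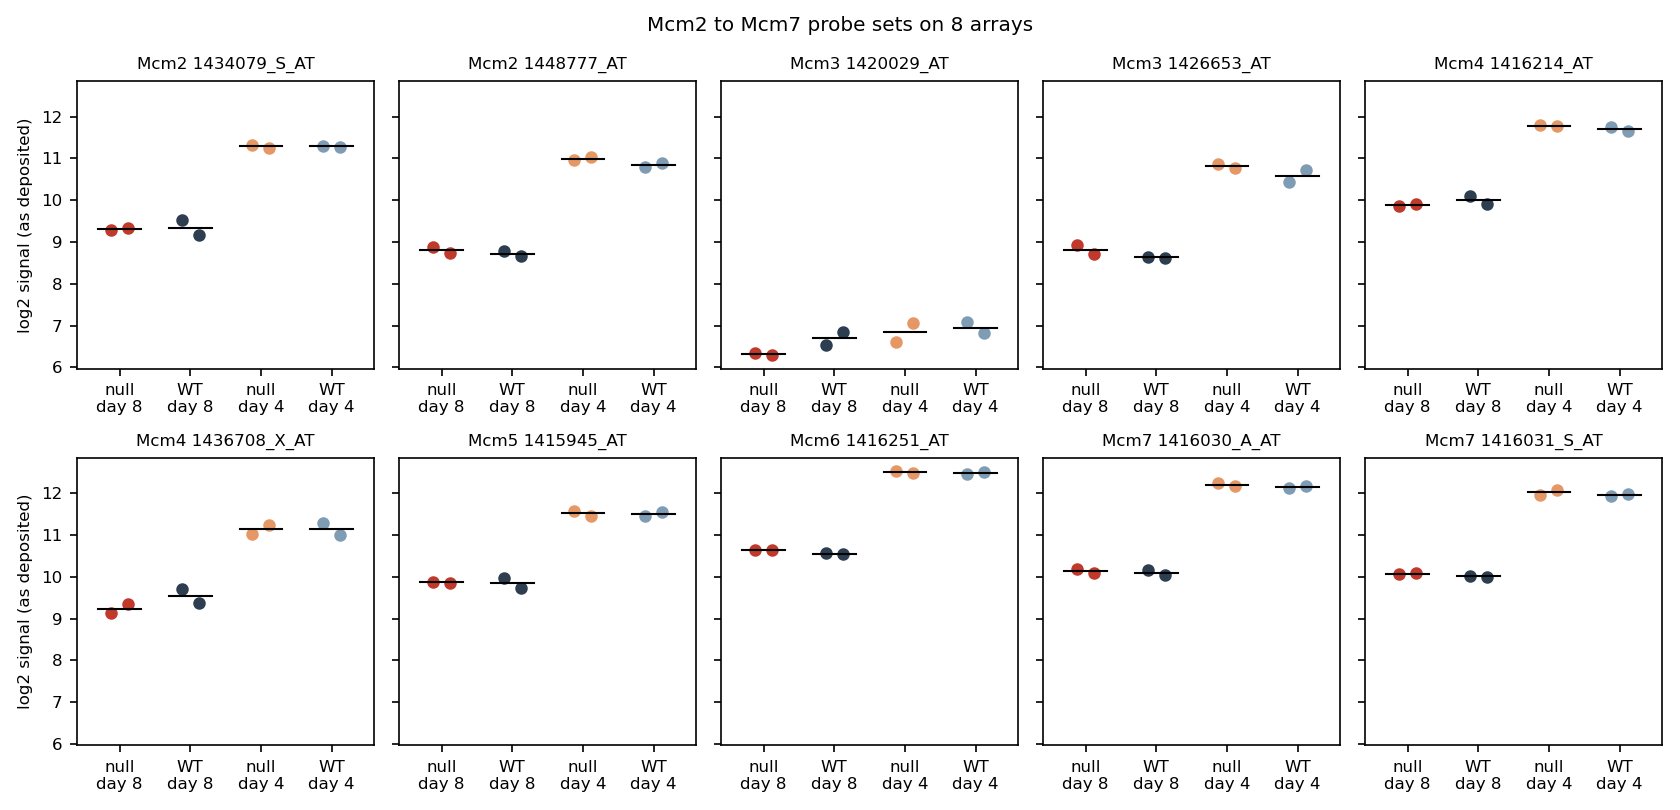
Log2 signal of each MCM probe set (y axis, as deposited) on the 2 arrays of each group (points), with the group mean (line). Day 8 arrays lie below day 4 arrays in both genotypes at every probe set but 1420029_AT, where the wild-type days overlap.

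Mcm4, Mcm6 and Mcm7 form a subcomplex that unwinds DNA by itself in biochemical assays, and their 5 probe sets are taken first. Mcm6 read 10.65 and 10.64 in null neutrophils at day 8 against 12.53 and 12.49 in null progenitors at day 4 (1416251_AT, log2 signal). In wild type it read 10.56 and 10.55 at day 8 against 12.45 and 12.51 at day 4. The replicates of Mcm6 differed by less than 0.06, far less than the gap between the days. The fall was 3.64-fold in null (log2 change -1.86, SE 0.06, limma adjusted p = 3.3e-10) and 3.81-fold in wild type (-1.93, SE 0.06, adjusted p = 3.7e-10).

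Mcm7 is also the host of a microRNA cluster, since RefSeq places 3 microRNA genes, Mir25, Mir93 and Mir106b, inside its interval, and the mature microRNAs were not analysed here. At 1416030_A_AT null cells read 10.18 and 10.10 at day 8 against 12.23 and 12.17 at day 4, and wild-type cells 10.17 and 10.04 against 12.11 and 12.17. At 1416031_S_AT null cells read 10.07 and 10.08 at day 8 against 11.95 and 12.08 at day 4, and wild-type cells 10.012 and 10.0004 against 11.93 and 11.97. Every day 8 array was below every day 4 array at both probe sets. Mcm7 fell 4.18-fold and 3.85-fold in null (log2 changes -2.06, SE 0.07, and -1.94, SE 0.06), and 4.11-fold and 3.85-fold in wild type (-2.04 and -1.95), with adjusted p-values of 7.7e-10 or less.

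Mcm4 carries regulatory phosphorylation sites of the Dbf4-dependent kinase, which fires origins. At 1416214_AT null cells read 9.85 and 9.91 at day 8 against 11.80 and 11.77 at day 4, and wild-type cells 10.11 and 9.92 against 11.75 and 11.66. At 1436708_X_AT, whose suffix marks probes that can cross-hybridize with other transcripts, null cells read 9.13 and 9.34 at day 8 against 11.02 and 11.25 at day 4, and wild-type cells 9.70 and 9.38 against 11.29 and 11.00. Every day 8 array was below every day 4 array of the same genotype at both probe sets. The fall was 3.73-fold and 3.75-fold in null (log2 changes -1.90, SE 0.08, and -1.91, SE 0.13), and 3.22-fold and 3.05-fold in wild type (-1.69 and -1.61), with adjusted p-values of 5.4e-07 or less. The larger fold in null was not called by the interaction test (adjusted p = 0.35 at 1416214_AT and 0.46 at 1436708_X_AT).

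Mcm2 and Mcm5 meet at the gate through which the ring opens around DNA, as shown in yeast and fly proteins, and Mcm2 also binds histones. Mcm2 at 1448777_AT read 8.89 and 8.73 in null neutrophils at day 8 against 10.96 and 11.03 in null progenitors, and in wild type 8.79 and 8.66 against 10.80 and 10.90. This was the steepest fall of the 10 in both genotypes, 4.55-fold in null (log2 change -2.19, SE 0.08, adjusted p = 1.5e-09) and 4.36-fold in wild type (-2.12, SE 0.08, adjusted p = 2.1e-09). At 1434079_S_AT null cells read 9.29 and 9.34 at day 8 against 11.31 and 11.26 at day 4, and wild-type cells 9.52 and 9.18 against 11.29 and 11.28. The wild-type day 8 arrays differed by 0.344 there, the widest replicate gap among the 9 probe sets that fell by at least 2-fold. The fall was 3.93-fold in null and 3.84-fold in wild type (log2 changes -1.97 and -1.94, SE 0.10).

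Mcm5 read 9.88 and 9.85 in null neutrophils at day 8 against 11.58 and 11.45 in null progenitors (1415945_AT). In wild type it read 9.97 and 9.74 at day 8 against 11.45 and 11.55 at day 4. It fell 3.14-fold in each genotype (log2 change -1.65, SE 0.08, adjusted p = 1.3e-08 in null and 1.5e-08 in wild type). Among the 9 probe sets, Mcm5 had the smallest fall in null cells, and the X-suffixed probe set of Mcm4 the smallest in wild type.

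Mcm3 contacts the loading machinery when the ring is recruited to origins, as known from yeast, and its 2 probe sets did not give the same answer. At 1426653_AT null cells read 8.93 and 8.70 at day 8 against 10.88 and 10.78 at day 4, and wild-type cells 8.64 and 8.62 against 10.43 and 10.73. That is a fall of 4.02-fold in null (log2 change -2.01, SE 0.11, adjusted p = 1.8e-08) and 3.85-fold in wild type (-1.95, SE 0.11, adjusted p = 2.5e-08), similar in size to the other subunits. At 1420029_AT null cells read 6.34 and 6.29 at day 8 against 6.62 and 7.06 at day 4, and wild-type cells 6.53 and 6.86 against 7.08 and 6.81. This probe set, with a mean of 6.70 over all arrays, lay closer to the filter value of 5.51 than any other of the 10, and its wild-type days overlapped. It changed by -0.53 in null (SE 0.17, adjusted p = 0.015) and by -0.25 in wild type (SE 0.17, 95% confidence interval -0.63 to 0.13, adjusted p = 0.20). With null day 4 replicate 2 left out the null value was no longer called (log2 change -0.31, adjusted p = 0.17), nor was it with null day 8 replicate 2 left out (-0.50, adjusted p = 0.061), while over 17 alternatives the adjusted p ran between 3.9e-05 and 0.17. In wild type it was called only after scaling to the hybridization controls (-0.42, adjusted p = 0.029, range 0.029 to 0.70).

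For the 4 genes with 2 probe sets, the difference between their changes was tested within arrays by an exact permutation of the day over 4 day 8 and 4 day 4 arrays (two-sided, smallest possible p = 0.0286, chosen after the values were seen). Null and wild-type arrays were permuted together, which treats them as exchangeable, and whether they are was not tested. The Mcm3 probe sets differed by 1.48 in null and 1.70 in wild type on the log2 scale, with no overlap between the days (exact p = 0.0286, 0.114 adjusted over the 4 genes). For Mcm2 the difference averaged 0.20 (exact p = 0.0571, adjusted 0.114), for Mcm7 -0.11 (exact p = 0.0857, adjusted 0.114) and for Mcm4 -0.04 (exact p and adjusted p = 0.743). No difference passed the adjusted threshold, which this design cannot reach unless at least 3 of the 4 genes give the smallest p. Apart from Mcm3, the probe sets of a gene had the same sign and the same call over maturation in both genotypes.

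**Figure D2:**
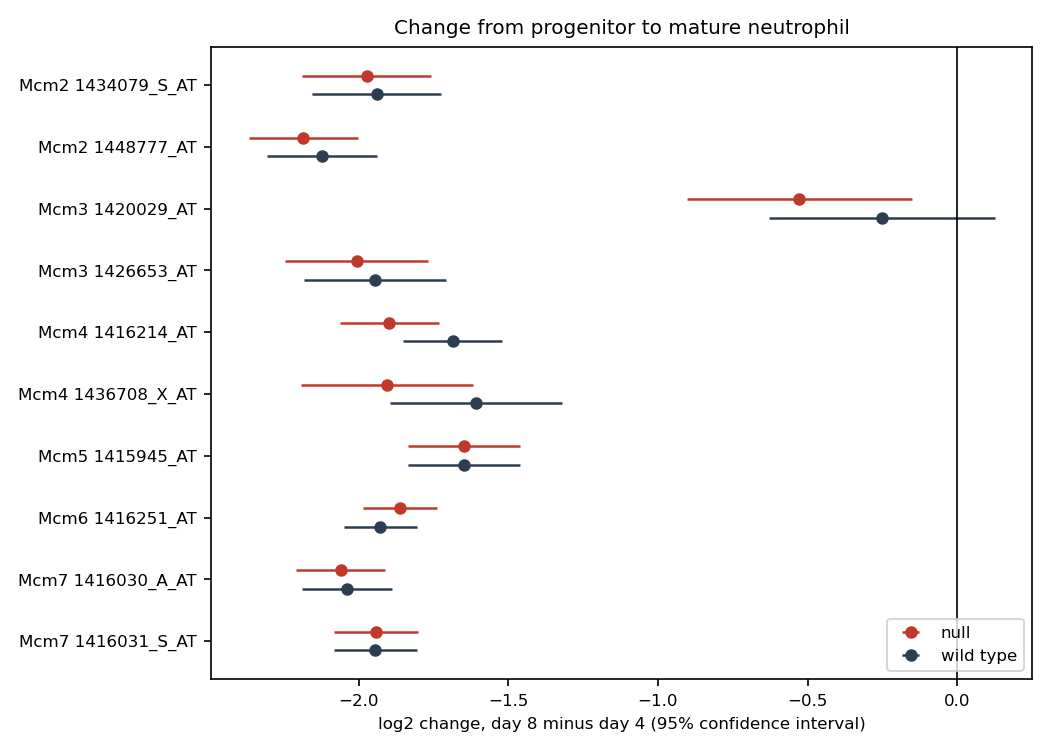
Log2 change from day 4 to day 8 (x axis, day 8 minus day 4) of each MCM probe set in null and in wild-type cells, with the 95% confidence interval of the limma model (bars). The intervals of 9 probe sets lie below -1, and only that of 1420029_AT in wild type crosses 0.

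Placed among all probe sets tested, the 9 steep falls lay at percentiles 5.4 to 10.2 of the log2 change in null and 5.6 to 10.8 in wild type, counted from the strongest fall. Many other tested probe sets thus fell as steeply or more steeply. The 3 control probe sets of the transferrin receptor, an iron uptake protein of dividing cells, also fell, with log2 changes of -2.76, -2.52 and -2.33 in null and -2.40, -2.35 and -2.19 in wild type. The 3 beta-actin controls rose, by 0.193 to 0.46 in null and 0.276 to 0.549 in wild type on the log2 scale (limma adjusted p of 0.00156 or less). Of the 3 Gapdh controls, 1 rose in null (0.147, with the others at 0.088 and 0.105) and 3 in wild type (0.133 to 0.202).

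**Figure D3:**
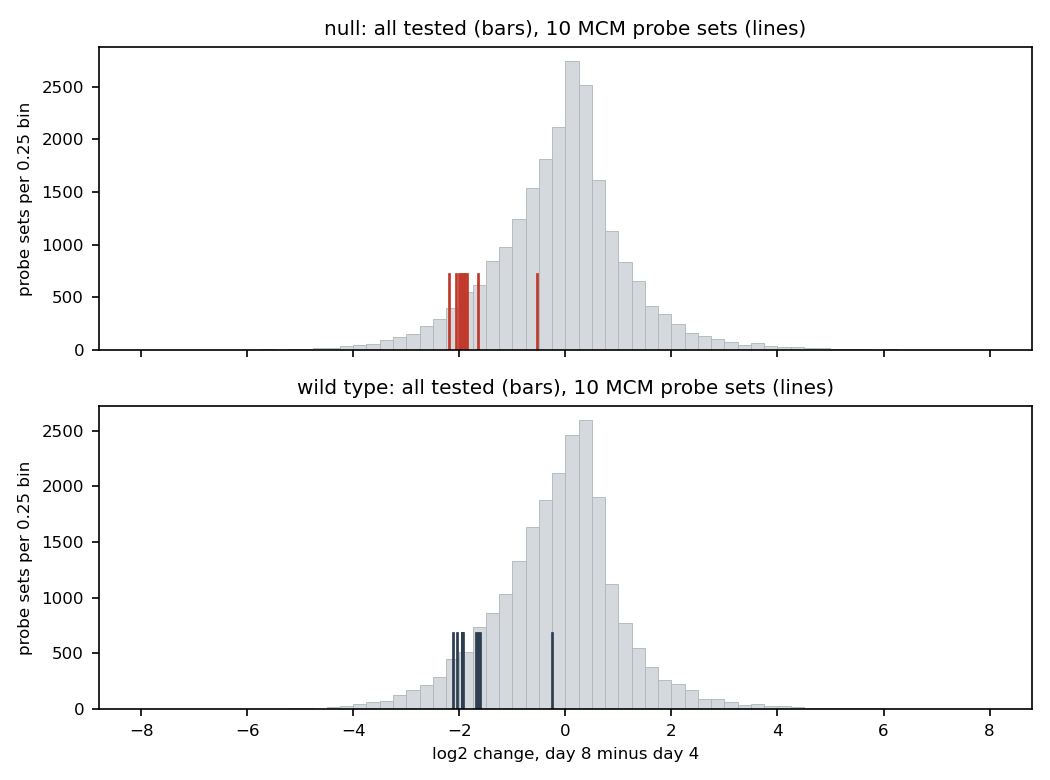
Number of probe sets (y axis) by log2 change from day 4 to day 8 (x axis, bins of 0.25) for all 22519 tested (bars), with the 10 MCM probe sets as lines, null above and wild type below. Of the 10 lines, 9 stand in the lower tail between -2.19 and -1.61, and that of 1420029_AT lies near the centre.

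The array pattern of the subunits was also compared across the 8 arrays, which share the split by day. Each of the 9 probe sets correlated with the mean of the other MCM probe sets at r = 0.982 or more, and 1420029_AT at 0.667. Outside the 10 listed probe sets, the closest patterns to their mean were those of 1438832_X_AT (r = 0.9997) and 1425628_A_AT (r = 0.9996), which no table used here pairs with a gene. The log2 change of 1438832_X_AT was -2.04 in null and -1.99 in wild type. Likeness of this kind was common, since 10.7% of the other tested probe sets had r above 0.99 with the mean of the 10. That cut is stricter than the 0.982 given for the 9 MCM probe sets, and the share at 0.982 was not counted.

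The genotypes were compared within a day to ask whether MCM messenger levels depend on miR-223. In mature neutrophils at day 8, limma called 0 of the 10 MCM probe sets between null and wild type (5.31% over every tested probe set), and 2 of the 10 had an unadjusted p below 0.05, near the 20.1% of all tested probe sets. The log2 changes lay between -0.38 and 0.18 with a median of 0.03, beside 0.02 over all tested probe sets. The groups did not overlap for 6 of the 10, which is near the 51.0% of all tested probe sets without overlap.

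Mcm4 was lower on both null arrays than on both wild-type arrays at day 8, at each of its probe sets. At 1416214_AT the nearest arrays were almost equal, 9.9145 in null and 9.9206 in wild type. The log2 change was -0.13 at 1416214_AT (95% confidence interval -0.30 to 0.03, adjusted p = 0.36) and -0.31 at 1436708_X_AT (-0.60 to -0.02, adjusted p = 0.21). Without wild-type day 8 replicate 1 these were -0.037 and -0.15, and without replicate 2 they were -0.23 and -0.47, none of them called. The Mcm3 probe sets took opposite signs, 0.18 at 1426653_AT (-0.05 to 0.42, adjusted p = 0.39) and -0.38 at 1420029_AT (-0.76 to -0.004, adjusted p = 0.24), each without overlap. Without wild-type day 8 replicate 2, 1420029_AT was -0.22, and without wild-type day 8 replicate 1 it was -0.54. The change at 1426653_AT ran from 0.070 without null day 8 replicate 1 to 0.30 without null day 8 replicate 2. Mcm6 was 0.09 (-0.03 to 0.21, adjusted p = 0.42) and Mcm7 at 1416031_S_AT 0.07 (-0.07 to 0.21, adjusted p = 0.62), also without overlap and with intervals that include 0. Scaling to the hybridization controls shifts every probe set of this comparison by the same -0.0925, which turned both values negative. For Mcm2, Mcm5 and the other Mcm7 probe set the groups overlapped, and the changes lay between -0.03 and 0.08.

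In progenitors at day 4, limma again called 0 of the 10 between null and wild type (2.72% over every tested probe set), and 1 of the 10 had an unadjusted p below 0.05, beside 18.0% of all. The groups did not overlap for 4 of the 10, beside 48.9% of all tested probe sets, and all 4 were higher in null. These were Mcm3 at 1426653_AT (log2 change 0.24, 95% confidence interval 0.01 to 0.48, adjusted p = 0.26), Mcm2 at 1448777_AT (0.15, -0.04 to 0.33, adjusted p = 0.39), Mcm4 at 1416214_AT (0.08, -0.09 to 0.25, adjusted p = 0.64) and Mcm7 at 1416030_A_AT (0.06, -0.09 to 0.21, adjusted p = 0.69, with the nearest arrays alike to 2 decimals). The wild-type value of Mcm3 rested on arrays 0.302 apart, and without wild-type day 4 replicate 2 its change was 0.40 and without replicate 1 it was 0.09. The other 6 probe sets overlapped between the genotypes, with changes of -0.10 to 0.07.

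The levels therefore ordered by day, with both day 8 groups below both day 4 groups at 9 probe sets, while null and wild type of the same day were neighbours whose difference passed no adjusted test. A miss of the threshold with 2 arrays a group does not show equal levels. Leaving out 1420029_AT, the widest 95% confidence intervals over both days ran down to -0.60 and up to 0.48 on the log2 scale, and so still held a change of 1.51-fold downward or 1.40-fold upward in null cells. The interval of 1420029_AT reached lower, from -0.76 to -0.004 at day 8, and ran from -0.48 to 0.27 at day 4.

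**Figure D4:**
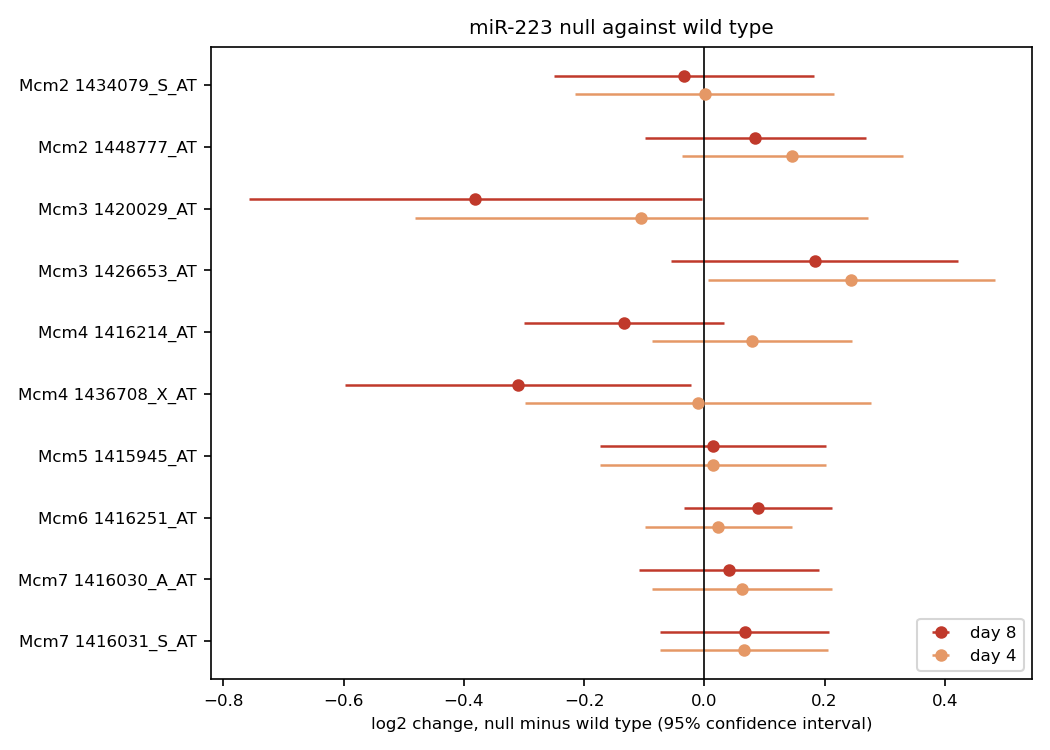
Log2 change between the genotypes (x axis, null minus wild type) of each MCM probe set at day 8 and at day 4, with the 95% confidence interval of the limma model (bars). Points lie between -0.38 and 0.24, and 3 of the 20 intervals, 2 at day 8 and 1 at day 4, leave out 0.

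Whether the null effect differed between the days, which is also whether the fall differed between the genotypes, was tested by the interaction term. Limma called 0 of the 10 (1.66% over every tested probe set), and 0 had an unadjusted p below 0.05, beside 16.5% of all. The differences lay between -0.30 and 0.07 with a median of -0.05, beside 0.04 over all tested probe sets. The lowest were those of Mcm4, -0.30 at 1436708_X_AT (95% confidence interval -0.71 to 0.11, adjusted p = 0.46), Mcm3, -0.28 at 1420029_AT (-0.81 to 0.26, adjusted p = 0.62), and Mcm4, -0.21 at 1416214_AT (-0.45 to 0.02, adjusted p = 0.35). At 1416214_AT the null arrays were both below the wild-type arrays at day 8 and both above them at day 4, and the interaction test did not call it. The nearest arrays there were close, 9.9145 in null and 9.9206 in wild type at day 8, and 11.7663 and 11.7479 at day 4. Genotypes without overlap were common, at 51.0% of all tested probe sets at day 8 and 48.9% at day 4. The share in opposite order on the 2 days was not counted. Mcm5 and Mcm7 at 1416031_S_AT had differences of 0.0003 and 0.001, with 95% confidence intervals from -0.27 to 0.27 and from -0.20 to 0.20.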

How the data were processed

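Expression was measured on 8 Affymetrix arrays from total RNA, with biotin as the label, in 4 groups of 2 taken from the sample titles. The authors deposited log2 values, the base being read from their range. GCOS is named in the submitters' processing notes, while how probes were summarised and normalized is not given in the sources used here. Values were used as deposited, so a background correction or equalizing normalization made earlier carries through to the fold changes.

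Probe sets other than the 64 controls with a mean at or above the median (5.51) were tested, 22519 of 45037, and all 10 MCM probe sets passed. One model with 4 group means was fitted with limma 3.58.1 (eBayes with an intensity trend, R 4.3.3, 4 residual degrees of freedom), with 5 two-sided comparisons and Benjamini-Hochberg adjustment over all tested probe sets. Calls required an adjusted p below 0.05. An exact permutation of 2 arrays against 2 cannot go below 0.333, so calls rest on the pooled spread, and the number of arrays limits the precision. The steps for the comparisons between days were tested on simulated data with independent errors and far fewer changed probe sets than here. The genotype and interaction comparisons were not tested in this way. Alternatives were no filter, 4 normalizations, no trend, the compared groups alone, a replicate block, each array left out and, added later, robust variances. Members, lists and rules were chosen with earlier results of these data known. All members are named. The closest patterns outside the 10 listed probe sets were limited to 2, since those probe sets carry no gene name. Gene lists and cell type markers could not be tested without a pairing of probe sets and genes. Motifs were searched with Python 3.11.15 in RefSeq sequences (GRCm38.p6).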

Additional observations from a re-analysis of the deposited data

How the results depend on the processing

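The falls of 9 MCM probe sets in both genotypes kept their direction and their call under all 17 alternatives, with log2 changes between -2.54 and -1.44; the interaction had 16, since a fit of only 2 groups cannot give it. The results for 1420029_AT are given with the Mcm3 values. The 10 MCM probe sets gave 0 calls between the genotypes and 0 in the interaction under every alternative run (lowest adjusted p 0.051). With the replicate block the members called were 10 in null, 9 in wild type and 0 in the other comparisons. Deviations of same-numbered arrays correlated between groups at -0.045 to 0.216, above 0.1 for 2 of the 6 pairs of groups, so the numbers were not taken to pair the arrays; whether arrays shared a culture or day was not tested.

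Signs of small genotype differences, none of them called, turned as follows. At day 4 quantile normalization gave -0.019 for Mcm2 at 1434079_S_AT and -0.011 for Mcm5, and Mcm4 at 1436708_X_AT became 0.020 after cyclic loess and 0.081 when scaled to the hybridization controls. At day 8 Mcm5 became -0.021 after quantile normalization, -0.024 after cyclic loess and -0.078 with hybridization controls, which also gave -0.0075 for Mcm2 at 1448777_AT, -0.0031 for Mcm6, and -0.051 and -0.026 for Mcm7. In the interaction Mcm5 became -0.011 (quantile), -0.0016 (same median), -0.067 (cyclic loess) and -0.18 (hybridization controls), Mcm7 at 1416031_S_AT became -0.044, -0.0005, -0.065 and -0.18 under the same settings, and Mcm6 became -0.12 with hybridization controls. Scaling to the hybridization controls shifts all probe sets of a comparison alike, by 0.0921 at day 4, -0.0925 at day 8 and -0.1846 in the interaction, so these turns follow from its construction. The cause of the others was not tested.

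Leaving out each array in turn gave these ranges at day 4: Mcm2 at 1434079_S_AT -0.026 to 0.027, Mcm3 at 1420029_AT -0.33 to 0.12, Mcm4 at 1436708_X_AT -0.16 to 0.14, Mcm5 -0.052 to 0.080 and Mcm6 -0.0059 to 0.053. At day 8 the ranges were -0.21 to 0.14 for Mcm2 at 1434079_S_AT, -0.10 to 0.13 for Mcm5 and -0.025 to 0.11 for Mcm7 at 1416030_A_AT. In the interaction they were -0.21 to 0.14 for Mcm2 at 1434079_S_AT, -0.14 to 0.017 at 1448777_AT, -0.21 to 0.090 for Mcm3 at 1426653_AT, -0.11 to 0.11 for Mcm5, -0.088 to 0.045 and -0.061 to 0.064 for Mcm7. The difference between the Mcm4 probe sets ran from -0.090 to 0.022.

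Counts over all tested probe sets moved more. Null against wild type gave 613 calls at day 4, 222 without the trend, 98 with only these groups in the fit, and 128 to 1658 with an array left out, the lowest without null day 4 replicate 1 and the highest without wild-type day 4 replicate 2. At day 8 it gave 1195 calls, 694 with hybridization controls, 747 without the trend and 353 to 1698 with an array left out, the lowest without null day 8 replicate 1 and the highest without wild-type day 4 replicate 1. The interaction gave 373 calls, 209 after quantile normalization, 198 after cyclic loess, 124 with hybridization controls, 129 without the trend and 47 to 890 with an array left out, the lowest without null day 8 replicate 2 and the highest without wild-type day 4 replicate 2. Probe set summaries deposited without detection calls or background leave the signal over background of each value unknown.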
